A study of Sus scrofa with 11 samples.

Results

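The secreted Wnt inhibitors were examined as a set of 9 genes, SFRP1, SFRP2, SFRP4, SFRP5, FRZB, DKK1, DKK2, DKK3 and WIF1, out of 35670 genes in a table of RNA sequencing counts from pig (Sus scrofa) carotid artery. They were chosen by gene name, and each name stood on 1 row. The set was proposed because SFRP2 differed between the groups in this same table, so the group differences of all 9 genes are given as a description, without a test. All 9 passed the filter on low counts that 15930 genes passed. The group where a gene is high can carry it past such a filter.

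Both groups of pigs ate a high-fat, high-calorie diet for 12 weeks and received a weekly infusion into a vein under general anaesthesia. One group received single-walled carbon nanotubes (SWNT, 400 nM, 5 libraries). In the other, the nanotubes were loaded with a chemical that blocks SHP-1, a tyrosine phosphatase (SWNT-SHP1i, 400 nM, 5 libraries), a treatment aimed at macrophages in a pig model of atherosclerosis. Each library came from 1 animal with its own number, and age, sex and strain are not in the labels used here. Of 6 SWNT-SHP1i animals, replicate 4 is labelled as having died before harvest and was not analysed here. Total counts ran from 27593564 to 47718854 per library. The 8 smooth muscle markers summed to 17203 to 54040 CPM (counts scaled to library size, with TMM factors) across the libraries, and SWNT-SHP1i replicate 6 had the lowest sum. That library (animal B9174) stood apart from the rest, and the group difference of each of the 9 genes is given with and without it. For other genes and lists the value without it is given where it turned in sign or moved by over 1.5 times. In bulk tissue, fewer cells of a type and less RNA per cell cannot be told apart.

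Wnt proteins signal by binding a Frizzled receptor together with the co-receptor LRP5 or LRP6, which stabilises beta-catenin. Secreted inhibitors act outside the cell. The secreted frizzled-related proteins, SFRP1, SFRP2, SFRP4, SFRP5 and FRZB (also called SFRP3), carry a cysteine-rich domain like that of Frizzled and bind Wnt. WIF1 binds Wnt through a different domain, while DKK1 and DKK2 bind LRP5 and LRP6. DKK3 is the divergent member of the Dickkopf family and is not a classical LRP ligand. In arteries this pathway is known for its part in the state of smooth muscle cells, in fibrosis and in calcification, and SFRP2 is also known to act on the processing of procollagen.

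SFRP2 and SFRP4 stood higher and WIF1 lower in most SWNT-SHP1i arteries than in SWNT arteries, and the other 6 inhibitors differed less or rested on 1 or 2 libraries. SFRP2 had a log2 fold change of 4.88 ± 1.31 (approximate standard error, SE, n = 5 and 5), which was 1.97 ± 0.71 without SWNT-SHP1i replicate 6. SFRP4 had one of 1.21 ± 0.34 (0.98 ± 0.31 without replicate 6) and WIF1 one of -1.13 ± 0.41 (-0.89 ± 0.29 without it). With edgeR, 0 of the 9 genes passed an adjusted p of 0.05 over all genes, as did 0% of all genes tested. At an unadjusted p under 0.05 edgeR gave 2 of 9 higher (SFRP2 and SFRP4) and 1 lower (WIF1), against 3.49% and 1.15% of all genes tested (4.64% in either direction). Without replicate 6 it gave 3 higher (DKK2 as well) and 1 lower, against 2.59% and 1.97% (4.56% in either direction), and 0 past the adjusted threshold. DESeq2 gave no p for SFRP2, whose counts it treated as outlying, and had 0 adjusted calls over all genes. Its unadjusted counts were 1 higher (SFRP4) and 1 lower (WIF1) of the 8 members with a p, against 4.87% and 1.38% (6.25% in either direction). With limma-voom they were 2 higher and 3 lower (SFRP1 and SFRP5 as well), against 4.87% and 3.92% (8.79% in either direction), again with 0 adjusted calls. The groups overlapped in all 9 members, and did not overlap in 0.0816% of all genes in the higher and 0.276% in the lower direction (0.358% in all). Nothing is read from these counts, because the set came from this contrast.

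**Figure D1:**
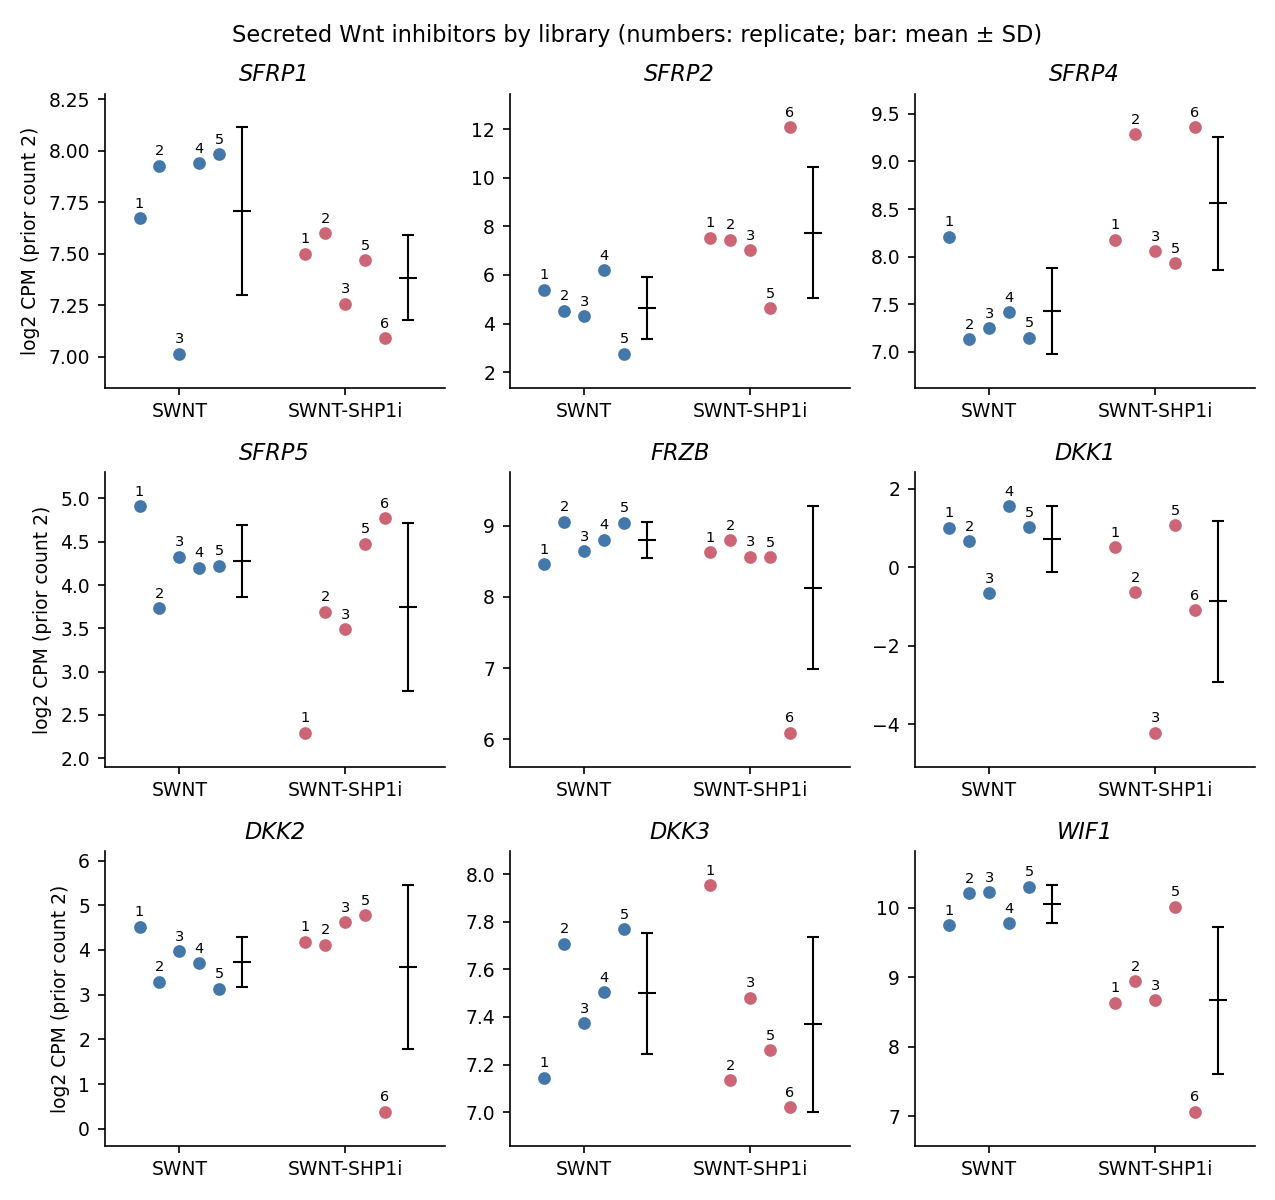
Level of each secreted Wnt inhibitor (y axis, log2 CPM with a prior count of 2, a separate scale in each panel) in 5 SWNT and 5 SWNT-SHP1i libraries. Points are libraries with their replicate number and bars are mean ± SD. SFRP2 and WIF1 in SWNT-SHP1i replicate 5 lie among the SWNT libraries. SWNT-SHP1i replicate 6 is the highest library for SFRP2 and SFRP4 and the lowest for FRZB, DKK2, DKK3 and WIF1.

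The SFRP proteins bind Wnt directly. SFRP2 lies on the plus strand of chromosome 8, 75337144 to 75345921 (Sscrofa11.1, as for all positions), with 3 exon blocks. It stood at 41.8, 23.1, 19.6, 72.9 and 6.71 CPM in SWNT replicates 1 to 5. In SWNT-SHP1i replicates 1, 2, 3, 5 and 6 it stood at 186, 175, 129, 24.7 and 4323 CPM. Thus 4 of 5 SWNT-SHP1i libraries lay above every SWNT library, while replicate 5 lay inside the SWNT range. Of all genes tested, 2.64% had at least 4 of 5 SWNT-SHP1i libraries above every SWNT library. The median was 23.1 CPM in SWNT and 175 CPM in SWNT-SHP1i, a ratio of 7.56, which is far from the 29.5-fold of the fitted model because the fit compares mean counts. Mean log2 CPM of SFRP2 was 4.63 ± 1.29 (SD, n = 5) for the carrier and 7.74 ± 2.70 for the loaded nanotubes, or 6.66 ± 1.37 without replicate 6. SFRP2 was already the most variable of the 9 genes within SWNT. Its highest SWNT library was 10.9-fold above its lowest, and its SD there exceeded that of 99.3% of 5263 genes of like level (within 1 log2 unit). In replicate 6 SFRP2 took 0.377% of all counts and ranked 23 among all genes, against ranks of 753 to 10230 in the other 9 libraries. Measured as the difference between replicate 6 and the median of the other 9 libraries, 5 genes exceeded SFRP2: ACP5, TREH, MMP9, SPP1 and HMOX1. These 5 names were looked up after the values were seen.

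SFRP4, on the minus strand of chromosome 9 (108404040 to 108414307), stood at 296, 140, 152, 170 and 142 CPM in SWNT replicates 1 to 5. In SWNT-SHP1i replicates 1, 2, 3, 5 and 6 it stood at 290, 623, 266, 244 and 656 CPM. Replicates 2 and 6 were above every SWNT library, and all 5 were above 4 of the SWNT libraries. The groups overlapped through SWNT replicate 1 alone. Its difference was not carried by replicate 6, since the mean log2 level of SWNT-SHP1i was 8.56 ± 0.70 with that library and 8.36 ± 0.62 without it, against 7.43 ± 0.45 in SWNT.

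SFRP1 (chromosome 17, 10436426 to 10489748, minus strand) stood at 204, 243, 129, 245 and 253 CPM in SWNT replicates 1 to 5. Its SWNT-SHP1i values were 181, 194, 153, 177 and 136 CPM in replicates 1, 2, 3, 5 and 6. All 5 were below 4 of the SWNT libraries and above the lowest, SWNT replicate 3, and the log2 fold change was -0.35 ± 0.21 (-0.29 ± 0.19 without replicate 6). SFRP5 (chromosome 14, 109119822 to 109125686, minus strand) had the lowest mean log2 CPM of this family in each group. In SWNT it was close to SFRP2 (4.28 against 4.63). SFRP5 ran from 13.2 to 30.0 CPM in SWNT. In SWNT-SHP1i it stood at 4.85, 12.9, 11.2, 22.2 and 27.3 CPM in replicates 1, 2, 3, 5 and 6. Replicates 1, 2 and 3 were below every SWNT library and the other two were inside the range. The log2 fold change of SFRP5 was -0.35 ± 0.40, and -0.65 ± 0.37 without replicate 6. It was -0.13 without SWNT-SHP1i replicate 1 and -0.16 without SWNT replicate 1. SFRP2 and SFRP5 thus lay on opposite sides of the SWNT range in replicates 1, 2 and 3.

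FRZB, abundant in these arteries (chromosome 15, 88332860 to 88377247, minus strand), stood at 352, 531, 398, 446 and 526 CPM in SWNT replicates 1 to 5. In SWNT-SHP1i it stood at 396, 444, 379, 376 and 68.2 CPM in replicates 1, 2, 3, 5 and 6. Replicate 6 was below every SWNT library and the other 4 lay inside the SWNT range. The log2 fold change of -0.44 ± 0.38 became -0.18 ± 0.16 without that library. Among the remaining 4 SWNT-SHP1i libraries the SD of FRZB was 0.11 on the log2 scale, smaller than that of most genes of like level (8.63% had a smaller one).

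WIF1, on the minus strand of chromosome 5 (29450442 to 29543913, 10 exon blocks), stood at 861, 1187, 1198, 879 and 1267 CPM in SWNT replicates 1 to 5. In SWNT-SHP1i replicates 1, 2, 3, 5 and 6 it stood at 396, 493, 408, 1037 and 134 CPM. Here again 4 of 5 SWNT-SHP1i libraries lay outside the SWNT range, below every SWNT library, and replicate 5 lay inside it. Of all genes tested, 3.65% had at least 4 of 5 SWNT-SHP1i libraries below every SWNT library. Mean log2 CPM of WIF1 was 10.06 ± 0.27 (SD, n = 5) for the carrier and 8.67 ± 1.06 for the loaded nanotubes, or 9.07 ± 0.65 without replicate 6. Within SWNT, WIF1 was steady, with a highest library 1.47-fold above the lowest. The corresponding ratio among the SWNT-SHP1i libraries other than replicate 6 was 2.62.

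The Dickkopf genes showed no shared direction. DKK1 (chromosome 14, 97487226 to 97490288, minus strand) was scarce, at 1.95, 1.53, 0.581, 2.86 and 1.98 CPM in SWNT replicates 1 to 5. In SWNT-SHP1i replicates 1, 2, 3, 5 and 6 it stood at 1.37, 0.587, 0, 2.04 and 0.416 CPM. The 0 reads in replicate 3 allow a level of up to 0.0815 CPM (3 counts, counting error only), and the groups overlapped. The log2 fold change was -1.01 ± 0.92 (-0.83 ± 0.97 without replicate 6). DKK2 (chromosome 8, 114862247 to 114974304, plus strand) ran from 8.74 to 22.9 CPM in SWNT and stood at 18.1, 17.3, 24.4, 27.4 and 1.25 CPM in SWNT-SHP1i replicates 1, 2, 3, 5 and 6. The first 4 of these were high in or above the SWNT range and replicate 6 was far below it. The fitted log2 fold change of DKK2 was 0.34 ± 0.56, although its mean log2 level was lower by 0.11 in SWNT-SHP1i (difference -0.11). Without replicate 6 both were positive, at 0.64 ± 0.28 and 0.70. DKK3 (chromosome 2, 47385192 to 47444660, plus strand) ran from 141 to 218 CPM in SWNT and from 130 to 248 CPM in SWNT-SHP1i. Its log2 fold change was -0.11 ± 0.22, and -0.03 ± 0.19 without replicate 6.

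**Figure D2:**
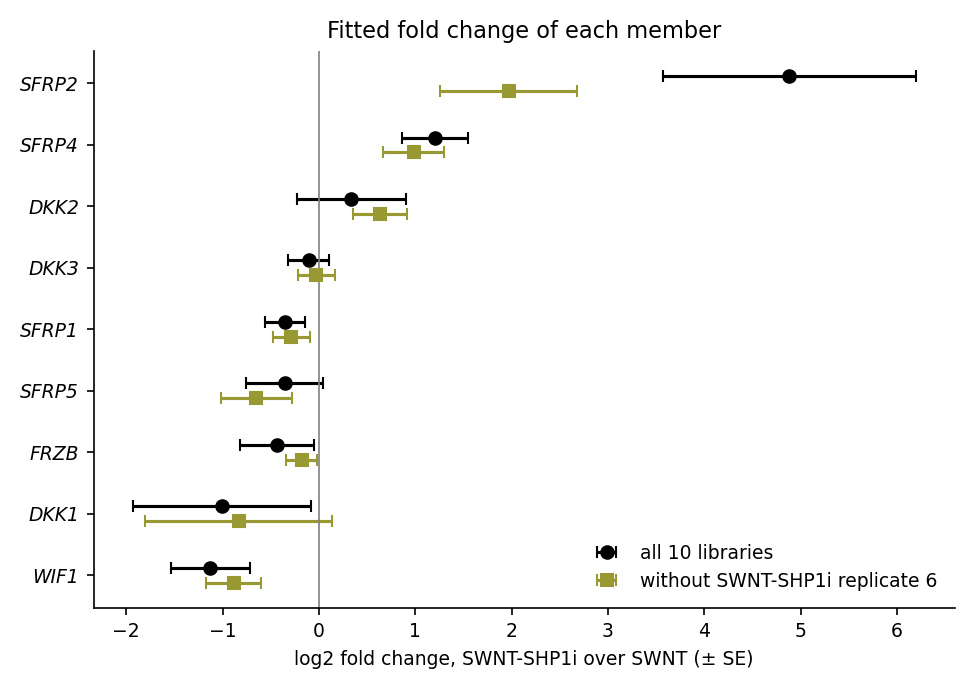
Fitted log2 fold change of SWNT-SHP1i over SWNT (x axis) for each secreted Wnt inhibitor, with approximate SE as bars. Black circles use all 10 libraries and squares leave out SWNT-SHP1i replicate 6; the signs are the same in both, and SFRP2 moves from 4.88 to 1.97.

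The range of animal numbers was the 1 other difference that the labels show among the libraries. SWNT replicate 3 and SWNT-SHP1i replicate 3 have B3 numbers and the other 8 have B9 numbers. Nothing says that this marks a batch. Over the B9 animals alone the log2 fold changes were 5.0 ± 1.53 for SFRP2, 1.27 ± 0.40 for SFRP4 and -1.02 ± 0.51 for WIF1. The B3 animals, 1 in each group, gave no estimate of their own. All 9 signs were the same there as over all libraries.

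Levels of the 9 genes were compared with each other per kilobase of summed exon length, as log2 CPM per kb. WIF1 was the most abundant inhibitor of SWNT artery at 8.84 ± 0.27 (SD, n = 5), followed by FRZB (7.18 ± 0.26), SFRP4 (6.45 ± 0.45), DKK3 (5.86 ± 0.25) and SFRP1 (5.72 ± 0.41). SFRP2 (3.52 ± 1.29), SFRP5 (3.46 ± 0.42), DKK2 (1.94 ± 0.55) and DKK1 (0.04 ± 0.83) made up the lower end. In SWNT-SHP1i the order of the means was SFRP4 (7.59 ± 0.70), WIF1 (7.45 ± 1.06), SFRP2 (6.63 ± 2.70), FRZB (6.51 ± 1.14), DKK3 (5.73 ± 0.37), SFRP1 (5.40 ± 0.21), SFRP5 (2.93 ± 0.97), DKK2 (1.83 ± 1.83) and DKK1 (-1.55 ± 2.06). SFRP2 thus had rank 6 in SWNT and rank 3 in SWNT-SHP1i, and the first rank was held by WIF1 in SWNT and by SFRP4 in SWNT-SHP1i. These ranks rested on replicate 6. Without it the SWNT-SHP1i order began with WIF1 (7.85 ± 0.65, SD, n = 4), SFRP4 (7.39 ± 0.62) and FRZB (7.02 ± 0.11), and SFRP2 (5.55 ± 1.37) had rank 5, just above SFRP1 (5.47 ± 0.14).

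Over all 10 libraries the order was WIF1, SFRP4, FRZB, DKK3, SFRP1, SFRP2, SFRP5, DKK2 and DKK1. Its 8 neighbouring pairs were tested by a two-sided exact sign-flip permutation test over libraries (smallest possible p = 0.00195). The pairs were picked from the order in these same libraries, and the groups, whose orders differed, were pooled. The p-values are therefore descriptive, and no support for the order is drawn from them. FRZB exceeded DKK3 by 1.05 ± 0.73 (SD, n = 10) on the log2 scale, in 9 of 10 libraries (adjusted p = 0.0234, exact permutation test). SFRP5 exceeded DKK2 by 1.31 ± 1.67, in 8 of 10 libraries (adjusted p = 0.0417, exact permutation test), though not past the threshold without SWNT-SHP1i replicate 6 (adjusted p = 0.0625). DKK2 exceeded DKK1 by 2.64 ± 2.09, in 10 of 10 libraries (adjusted p = 0.0156, exact permutation test). The other 5 neighbouring pairs in this pooled order did not pass the test. Over SWNT alone, where 5 libraries allow no p below 0.0625, WIF1 exceeded SFRP4 by 2.38 ± 0.68 (SD, n = 5) and SFRP1 exceeded SFRP2 by 2.20 ± 1.35, each in 5 of 5 libraries. Among the 5 pairs, SFRP4 over FRZB (0.18 ± 1.52) turned to -0.24 without replicate 6 and to -0.72 over SWNT alone.

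The libraries also differed in which inhibitor made up most of the summed level of all 9. In SWNT, WIF1 made up 47.7% to 61.8% of the summed CPM per kb and SFRP2 made up 0.330% to 4.32%. In SWNT-SHP1i replicates 1, 2 and 3 WIF1 made up 25.6%, 24.6% and 29.0% and SFRP2 12.9%, 9.39% and 9.91%. Replicate 5 had the make-up of a SWNT library, with WIF1 at 54.4% and SFRP2 at 1.39%. Replicate 6 was reversed, with SFRP2 at 79.8% and WIF1 at 2.29%. SFRP4 was the largest component in replicate 2, at 36.8%. The summed level itself was 777 to 939 CPM per kb in SWNT, 603 to 861 in SWNT-SHP1i replicates 1, 2, 3 and 5, and 2504 in replicate 6.

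**Figure D3:**
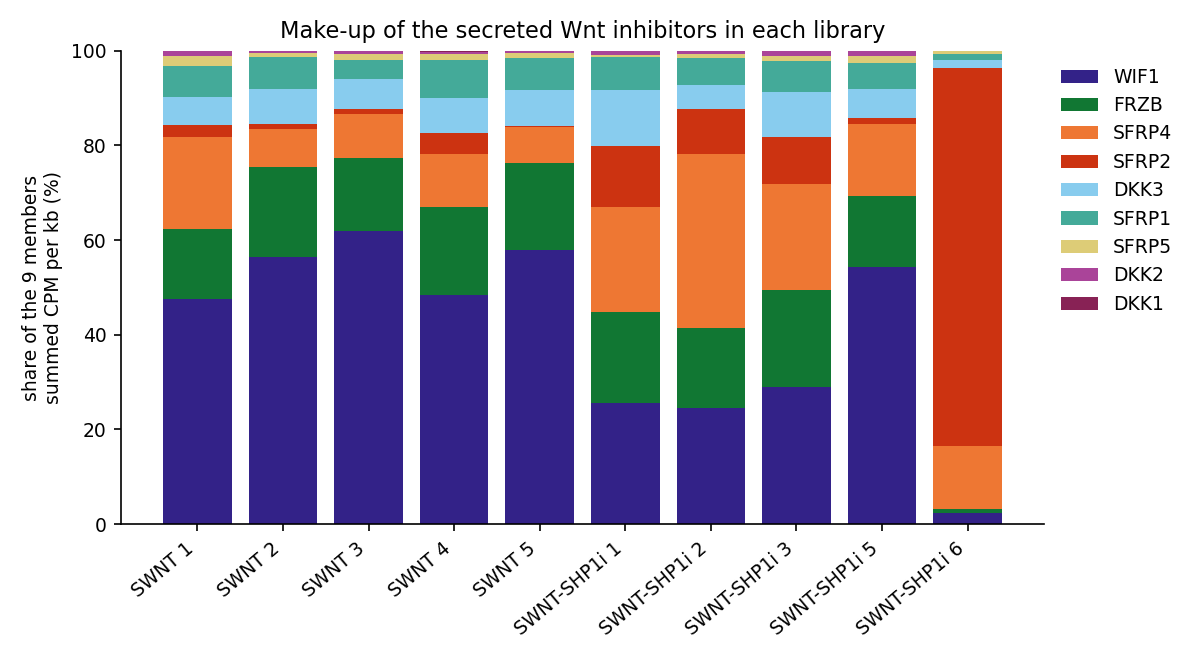
Share of each gene in the summed CPM per kb of the 9 secreted Wnt inhibitors (y axis, percent) in each of the 10 libraries (x axis). WIF1 is the largest component in all 5 SWNT libraries and in SWNT-SHP1i replicates 1, 3 and 5, SFRP4 in replicate 2 and SFRP2 in replicate 6.

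SFRP2 and WIF1 ran in opposite order over the libraries. The 4 libraries with the highest SFRP2, SWNT-SHP1i replicates 1, 2, 3 and 6, were the 4 with the lowest WIF1 (134 to 493 CPM), and the other 6 libraries had WIF1 at 861 to 1267 CPM. SFRP2 per kb was below WIF1 by 11.2-fold to 176-fold in SWNT, by 1.98-fold, 2.62-fold and 2.93-fold in SWNT-SHP1i replicates 1, 2 and 3, and by 39.0-fold in replicate 5. In replicate 6 SFRP2 was 34.8-fold above WIF1. These ratios are taken within a library and do not depend on the scaling between libraries. Within SWNT alone, the library with the lowest SFRP2 (replicate 5, 6.71 CPM) had the highest WIF1 (1267 CPM). Because the libraries fall into separate levels, no correlation coefficient is given for this pair.

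**Figure D4:**
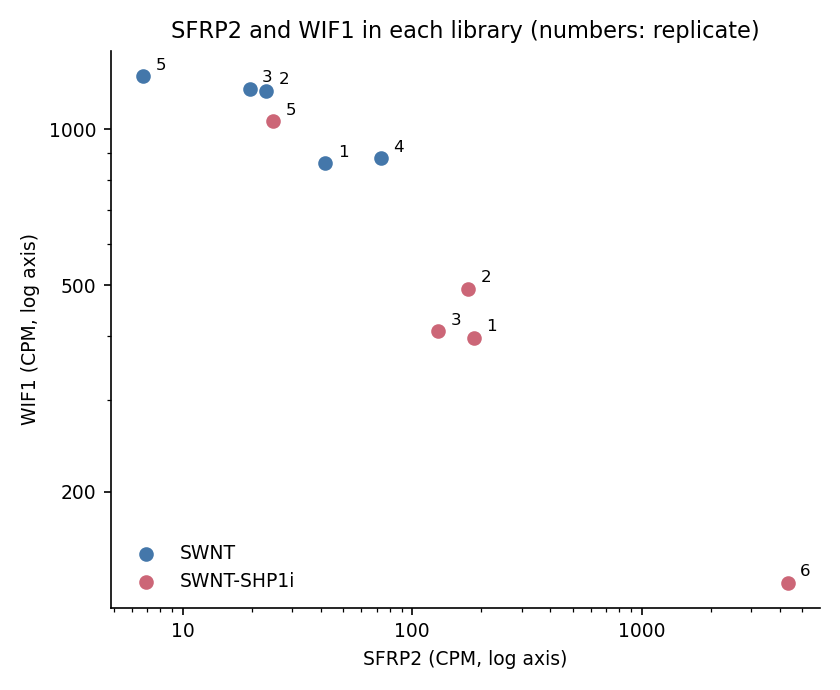
SFRP2 (x axis, CPM, log axis) against WIF1 (y axis, CPM, log axis) in 5 SWNT and 5 SWNT-SHP1i libraries, each point a library with its replicate number. SWNT-SHP1i replicates 1, 2 and 3 have higher SFRP2 and lower WIF1 than every SWNT library, replicate 6 more so, and replicate 5 lies among the SWNT libraries.

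Markers of the cell types of the wall differed between the same libraries. The 10 fibroblast markers, among them the collagens COL1A1 (0.98 ± 0.29) and COL1A2 (0.60 ± 0.27), all had positive log2 fold changes (median 0.40, all genes tested 0.01), with 0 past the threshold. Their summed level was 41072 to 84173 CPM in SWNT and 70520 to 105075 CPM in SWNT-SHP1i. The 8 smooth muscle markers all had negative ones (median -0.68, 0 past the threshold), with the smallest p for calponin CNN1 (-0.84 ± 0.24) and TAGLN (-0.67 ± 0.21), and summed to 36132 to 54040 CPM in SWNT and 17203 to 43784 CPM in SWNT-SHP1i. No marker of either list was at 0 in any library. Their part in the differences of SFRP2 and WIF1 was not tested. Per 1000 CPM of fibroblast markers SFRP2 was 0.126 to 1.34 CPM in SWNT and 2.03, 1.66, 1.83, 0.305 and 49.5 CPM in SWNT-SHP1i replicates 1, 2, 3, 5 and 6. Per 1000 CPM of smooth muscle markers WIF1 was 22.0 to 24.5 CPM in SWNT and 15.4, 14.7, 16, 23.7 and 7.77 CPM in those SWNT-SHP1i replicates. Both ratios left the same 4 libraries outside the SWNT range and replicate 5 inside it, but each ratio also moves with its marker sum. FRZB, set against the same smooth muscle markers, was 7.55 to 12.3 CPM per 1000 CPM in SWNT and 15.4, 13.2, 14.9, 8.58 and 3.96 in the SWNT-SHP1i replicates. Replicates 1, 2 and 3 thus lay above the SWNT range of this ratio, though inside the SWNT range of FRZB in CPM. The fibroblast sum was mostly collagen. SWNT medians were 17921 CPM for COL1A1, 9887 CPM for COL1A2 and 23256 CPM for COL3A1, against 54222 CPM for the sum.

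The 10 macrophage markers, the cells the treatment is aimed at, all had positive log2 fold changes (median 1.36, or 1.0 without replicate 6), with 0 past the threshold and the smallest p for CD163 (1.82 ± 0.45) and CD14 (1.71 ± 0.56, or 0.87 ± 0.38 without replicate 6). Their summed level was 384 to 1172 CPM in SWNT and 1316, 1415, 1412, 399 and 2053 CPM in SWNT-SHP1i replicates 1, 2, 3, 5 and 6. No marker of this list was at 0 in any library. Replicate 6 was highest and replicate 5 lowest of the SWNT-SHP1i libraries in macrophage markers, as in SFRP2, and the part of macrophages in the SFRP2 difference was not tested. Cartilage and bone markers had a median of -0.54 over 9 tested members (4 positive, 5 negative, 0 past the threshold) and of -0.32 without replicate 6, with CHAD at -1.10 ± 0.52 and RUNX2 at 1.23 ± 0.66, the latter 0.37 without replicate 6. Their summed level was 75.3 to 272 CPM in SWNT and 39.5 to 188 CPM in SWNT-SHP1i. The 6 endothelial markers had a median of 0.30 (4 positive), or 0.09 without replicate 6, with KDR at 0.64 ± 0.36 and ERG at -0.41 ± 0.30 (-0.21 without it). The 4 tested Schwann cell markers had a median of -0.73 (0 positive), or -0.48 without replicate 6, with SOX10 at -0.83 ± 0.29. The 4 adipocyte markers had a median of -0.73 (1 positive), with PLIN1 at -0.80 ± 0.90 and LEP, at 2.11 CPM or less in every library, at -1.06 ± 1.53. Of 5 skeletal muscle markers 1 was tested, CKM at 2.61 ± 0.69, and the 3 red cell genes had a median of -1.46 (0 positive), with AHSP at -2.14 ± 1.12 and ALAS2 at -1.46 ± 0.81. In these lists, too, 0 members passed, as did 0% of all genes tested. At an unadjusted p under 0.05 edgeR gave 9 of 10 macrophage and 2 of 10 fibroblast markers higher (all genes 3.49%). Smooth muscle markers gave 4 of 8 lower (all genes 1.15%). Schwann cell markers gave 1 of 4 lower and skeletal muscle markers 1 of 1 higher, and the remaining marker lists gave 0. Nothing is read from these counts, because the lists were chosen with earlier results of these data known.

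The other genes of the Wnt pathway showed no common direction. Of 88 listed genes outside the set, 71 were tested, 33 with positive and 38 with negative log2 fold changes (median -0.05, all genes tested 0.01; -0.00 without replicate 6). With edgeR, 0 passed an adjusted p of 0.05, and 3 higher and 3 lower genes had an unadjusted p under 0.05, against 3.49% and 1.15% of all genes tested. DESeq2 and limma-voom also called 0 of them.

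Of the Wnt ligands, 12 of 19 were tested and 9 were positive (median 0.31). WNT9B (1.47 ± 0.73), WNT3 (1.18 ± 0.80) and WNT10B (0.66 ± 0.47) had the smallest p, and WNT9B and WNT3 were near the detection limit, with medians of 0.649 and 0.479 CPM in SWNT. WNT9B gave 0.69 without replicate 6, and WNT3 gave 0.01 without SWNT-SHP1i replicates 3 and 6. The 2 genes of Wnt secretion were the acyltransferase PORCN (0.27 ± 0.33, or 0.09 without replicate 6) and the carrier WLS (0.18 ± 0.17), with a median of 0.23 (0.14 without it). PORCN turned to -0.40 without SWNT-SHP1i replicates 3 and 6.

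Of 16 receptors and co-receptors, all tested, 13 were negative (median -0.18). FZD3 (1.83 ± 0.60), PTK7 (2.19 ± 0.998) and the co-receptor LRP5 (-0.46 ± 0.23) had the smallest p. FZD3 was low, at 0.357 to 0.914 CPM in SWNT and 0.880 to 4.04 CPM in SWNT-SHP1i. PTK7 stood at 110 CPM in replicate 6 and at 11.6 CPM or less in the other SWNT-SHP1i libraries, and its log2 fold change without replicate 6 was -0.00. LRP5, to which DKK1 and DKK2 bind, ran from 184 to 340 CPM in SWNT and from 127 to 244 CPM in SWNT-SHP1i.

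Among R-spondins, which raise the number of Wnt receptors at the cell surface, and their LGR receptors and the ligases they block, 7 of 9 genes were tested (3 positive, median -0.09, or 0.14 without replicate 6). LGR6 (1.63 ± 0.56) ran from 3.86 to 8.68 CPM in SWNT and from 3.54 to 40.5 CPM in SWNT-SHP1i, with 3 of 5 SWNT-SHP1i libraries above every SWNT library. LGR4 gave 0.43 ± 0.34 and RSPO1 -1.02 ± 0.94. Of the Wnt antagonists outside the set, 8 of 14 were tested (6 positive, median 0.13, or 0.05 without replicate 6). TRABD2B, a protease that inactivates Wnt, had a log2 fold change of -0.67 ± 0.29, the membrane-bound inhibitor APCDD1 one of -0.48 ± 0.30 and the LRP ligand SOST one of 0.67 ± 0.52. The intracellular components had a median near 0 (17 of 18 tested, 6 positive, median -0.05, or 0.01 without replicate 6), with TCF7 at 1.07 ± 0.56, BTRC at -0.34 ± 0.20 and BCL9 at -0.44 ± 0.31 (-0.25 without it). TCF7 turned to -0.14 without SWNT-SHP1i replicates 3 and 6.

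Genes known as direct targets of beta-catenin were listed too, while the activity of beta-catenin itself was not measured. Of 18 listed, 15 were tested, 6 with positive and 9 with negative log2 fold changes (median -0.15), and 0 passed the threshold. AXIN2, the feedback inhibitor most often used as a readout, gave 0.02 ± 0.35 (0.23 ± 0.25 without replicate 6). NKD1 and NKD2, feedback inhibitors that bind Dishevelled, gave -0.71 ± 0.25 and -0.62 ± 0.22. NKD1 ran from 89.6 to 141 CPM in SWNT and from 45.3 to 106 CPM in SWNT-SHP1i, and NKD2 from 128 to 194 CPM and from 74.6 to 144 CPM. In both, 4 of 5 SWNT-SHP1i libraries lay below every SWNT library, and 3.65% of all genes tested had at least 4 such libraries. CCND1, which encodes cyclin D1, gave -0.33 ± 0.17, and its groups did not overlap (104 to 157 CPM in SWNT, 82.8 to 102 CPM in SWNT-SHP1i), as for 0.276% of all genes tested in that direction. The listed targets summed to 549 to 709 CPM in SWNT and 404 to 595 CPM in SWNT-SHP1i. AXIN2 was named after its value was seen.

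Because SFRP2 is known to act on procollagen processing, the 8 genes of that step were listed as well. All 8 were tested, 6 were positive (median 0.30) and 0 passed. PCOLCE, the enhancer of procollagen C-proteinase, gave 0.68 ± 0.27 (0.43 without replicate 6), the proteinase BMP1 0.68 ± 0.35 (0.18 without it) and the N-proteinase ADAMTS2 0.33 ± 0.24.

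**Figure D5:**
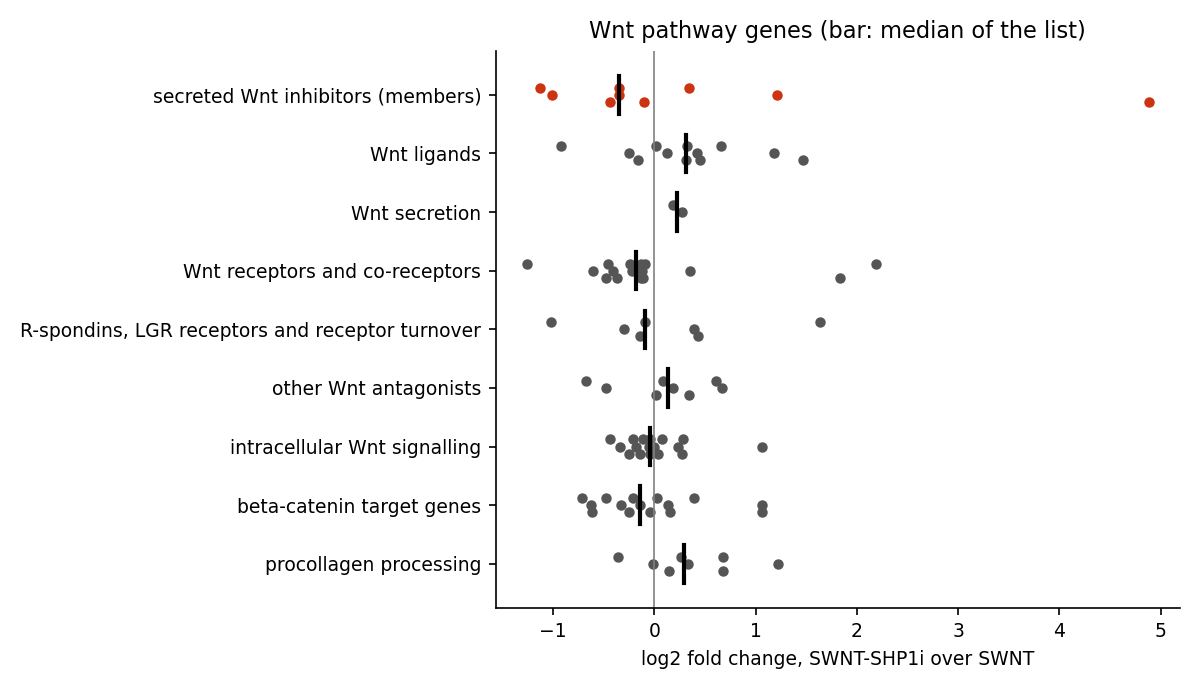
Log2 fold change of SWNT-SHP1i over SWNT (x axis) of each tested gene in the Wnt pathway lists and in the 9 secreted inhibitors (y axis), with a bar at the median of each list. Most genes of each list lie between -1 and 1, and SFRP2, at 4.88, is the point furthest to the right.

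The genes whose levels followed SFRP2 most closely were ranked among 12355 named genes by the smaller of 2 Pearson coefficients of log2 CPM, over all 10 libraries and over the 9 without SWNT-SHP1i replicate 6. These values are descriptive, since the libraries share the treatment difference and fall into separate levels of SFRP2, and the genes were picked from many. The first 8 were OLFM1, the lysosomal enzyme GUSB, the peroxidase GPX7, the translocon subunit SSR3, MANSC1, the carboxypeptidase-like CPXM1, TTYH2 and NECAB3, with coefficients of 0.92 to 0.97 over 10 libraries and 0.91 to 0.94 over 9. OLFM1 stood at 11.9 to 27.5 CPM in SWNT and 12.6 to 105 CPM in SWNT-SHP1i (log2 fold change 1.49 ± 0.44). GUSB stood at 35.6 to 57.9 CPM and 46.4 to 274 CPM (1.28 ± 0.41, or 0.65 without replicate 6). In the same ranking 198 genes were more like SFRP2 than SFRP4 was. By the larger of the 2 coefficients, 8 genes ran more opposite to SFRP2 than WIF1 did.

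For SFRP4 the first 5 genes were the coagulation factor subunit F13A1, the matrix glycoprotein EMILIN2, DRAM1, the transporter ABCC4 and PCOLCE, with coefficients of 0.94 to 0.96 over 10 libraries and 0.92 to 0.95 over 9. These coefficients are descriptive too, and SWNT-SHP1i replicates 2 and 6 stood far above the other libraries in SFRP4. PCOLCE, a member of the procollagen list, stood at 437 to 855 CPM in SWNT and 642 to 1505 CPM in SWNT-SHP1i. None of the 13 genes named for likeness was on both lists, and no member of the set was among them.

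The neighbours of the 9 genes on the chromosomes and overlapping genes were checked, because the strand setting of the counting is not known. For 7 members no other annotated gene overlapped. DKK2 overlapped a U5 gene with 0 reads and WIF1 a U6 gene with 10 reads in all libraries together. The closest tested genes beside SFRP2 were TLR2, 66072 bases after it, with a log2 fold change of 0.56 ± 0.37 (0.18 without replicate 6), and PLRG1, 704042 bases before it, with -0.30 ± 0.28 (-0.18 without it). SFRP4 lay 3734 bases before EPDR1 (-0.84 ± 0.45), and the genes next to WIF1 were LEMD3 (-0.11 ± 0.26, or 0.03 without replicate 6) and TBC1D30 (-0.46 ± 0.54, or -0.26 without it).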

How the data were processed

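Whole read counts per gene were deposited by the authors in a single table, without normalization. Trim Galore, STAR and DESeq2 and the build Sscrofa11.1 are named in the submitters' processing notes. Which program counted the reads, with what strand setting and gene models, is not stated in the sources at hand. The table holds coordinates and summed exon length for each gene, per the file headers. Symbols came from the table for 17508 genes, from a table of identifiers for 223 and from RefSeq genes at the same position for 866 (overlap of at least 0.5 of the union).

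Replicate numbers follow accession order and pair no animals. Libraries were checked for double deposition (lowest median chi-square per gene of any pair 5.47, sampling noise alone 0.455). P-values of the fits set the group difference against the spread between these animals, and those of the order of levels come from sign flips over libraries. Counts were filtered with filterByExpr (minimum count 10), scaled by TMM and tested with edgeR 4.0.16 (robust quasi-likelihood test, R 4.3.3) with Benjamini-Hochberg adjustment over all 15930 genes and a threshold of 0.05. The approximate SE was taken from the F statistic (size of the log2 fold change over root F). Alternatives were RLE scaling, no filter, a filter of 1 CPM in 5 libraries, DESeq2 1.42.0, limma-voom (limma 3.58.1) with quality weights, a term for B3 or B9 animal numbers, a threshold of 0.1 and left-out libraries. Fits over B9 animals and DESeq2 without SWNT-SHP1i replicate 6 were added after seeing the data.

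The members and lists were chosen with earlier results of these data known. Named are the 9 members, the 3 genes with the smallest p of each Wnt list, the 2 of each cell type list (1 of which is not reported here), and the genes most like SFRP2 (8) and SFRP4 (5) with a mean of at least 0 log2 CPM.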

Additional observations from a re-analysis of the deposited data

Results flagged for a closer look

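Each member was examined for a library far from the rest of its group, in 18 groups of 5 libraries. Chance flags about 1 in 20 such groups, and 3 were found, but SFRP2 and SWNT-SHP1i replicate 6 had been singled out beforehand, so this number is not set against chance. SFRP2 in SWNT-SHP1i replicate 6 stood at 4323 CPM, far above the next library at 186 CPM. FRZB in the same library stood at 68.2 CPM, below the next at 376 CPM. SFRP4 in SWNT replicate 1 stood at 296 CPM, above the next SWNT library at 170 CPM, and without that library the log2 fold change of SFRP4 was 1.46.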

How the results depend on the processing

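All 9 log2 fold changes kept their sign under all 19 alternatives. With 1 library left out, SFRP2 ran from 1.97 to 5.37, SFRP4 from 0.98 to 1.46, WIF1 from -1.59 to -0.89, SFRP1 from -0.49 to -0.29, SFRP5 from -0.65 to -0.13, FRZB from -0.57 to -0.18, DKK1 from -1.58 (without SWNT-SHP1i replicate 5) to -0.69, DKK2 from 0.12 (without SWNT-SHP1i replicate 5) to 0.64 and DKK3 from -0.29 (without SWNT-SHP1i replicate 1) to -0.03. SFRP2 moved by more than its approximate SE over all libraries (1.31) with limma-voom (2.58) and without SWNT-SHP1i replicate 6 (1.97). It did so too with DESeq2 without that library (1.98) and without replicates 3 and 6 (1.97). Genes called at an adjusted p of 0.05 numbered 0 under every alternative, over all genes and in the Wnt lists. In the order of levels, SFRP4 over FRZB turned to -0.72 over SWNT alone and to -0.24 without SWNT-SHP1i replicate 6. Over SWNT alone, where 5 libraries allow no p below 0.0625, FRZB over DKK3 (1.32), SFRP5 over DKK2 (1.52) and DKK2 over DKK1 (1.90) did not pass. SFRP5 over DKK2 did not pass without replicate 6 either (0.86). The cause of these shifts was not tested. Depth limits DKK1, WNT9B, WNT3 and FZD3. No paired analysis was possible because the replicate numbers were given in accession order and pair no animals.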
